A study of Mus musculus with 6 samples.

Results

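This is a comparison of the mouse islet arrays of zeitgeber times ZT4 and ZT12 with those of ZT16 and ZT20, 4 of the 6 arrays in the series. The arrays were chosen by their own levels: lymphocyte transcripts had been seen to be high and endocrine transcripts low at ZT4 and ZT12, with the reverse at ZT16 and ZT20. The genes were selected on the differences described here, and no difference between the pairs is tested. Of 24391 genes measured on the 4 arrays, 6537 differed by at least 2-fold in the same direction in all 4 cross pairs (ZT4 or ZT12 against ZT16 or ZT20). Of these, 3455 genes (14.2% of those measured) were higher at ZT4 and ZT12, and 3082 genes (12.6%) were higher at ZT16 and ZT20.

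Every group in the series was a pool of pancreatic islet RNA from male C57BL6 mice, 8 weeks old and on rodent chow, housed with 12 h of light and 12 h of darkness. The labels give 3 to 5 mice per pool and a single Cy3 array per time point. ZT4 falls in the light phase, ZT12 at the change to darkness, and ZT16 and ZT20 in the dark phase. Each pair of arrays thus joins different times of day, and its members are not replicates of a condition.

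Islets are clusters of hormone-secreting cells scattered through the exocrine pancreas. Beta cells release insulin and amylin, alpha cells glucagon, delta cells somatostatin and PP cells pancreatic polypeptide. Such preparations are freed from the surrounding tissue by enzyme digestion and picked, and pancreatic lymph nodes, blood vessels, nerves, acinar tissue and ducts lie close by. T cells carry the CD3 complex, B cells carry CD79, and lymph nodes are organised by chemokines made by their stroma and entered through specialised venules.

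A level here is the log2 processed signal of a probe relative to the 75th percentile of its array, and a difference is the mean level of ZT4 and ZT12 minus that of ZT16 and ZT20, in log2 units. The share of spots well above background was 66.1% to 75.3% on the 4 arrays, and no spot was saturated (0 on each array). ZT12, ZT16 and ZT20 were on the same slide and scan, together with ZT8. The ZT4 array came from another scan, so the contrast is also given without it where it matters. Pearson's r across genes, which do not count as replicates, was 0.966 between ZT16 and ZT20, 0.936 between ZT4 and ZT12, and 0.827 between ZT12 and ZT20. In these bulk samples, fewer cells of a type and less RNA per cell cannot be told apart.

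The markers of the comparison set its pattern. Cd3g, the gamma chain of the CD3 complex of T cells, had a level of 5.07 at ZT4 and 4.53 at ZT12, against -2.31 at ZT16 and -2.12 at ZT20. Cd79b, a signalling chain of the B cell receptor, stood at 6.38 and 5.62 against 0.56 and 0.83. Ltb, which encodes lymphotoxin beta of lymphoid tissue, was at 4.99 and 4.89 against -0.88 and -0.72. All 3 lymphocyte markers were high on both arrays of the first pair, and the pairs did not overlap. Nkx6-1, a homeodomain factor of beta cells, was at -1.17 and -2.52 against 1.87 and 1.79, lower by at least 2-fold in every pair. Chga, the granule protein chromogranin A, was at 6.75 and 5.17 against 7.54 and 7.32. Chga was lower in all 4 pairs, but its difference between ZT4 and ZT20 was only 0.57 in size and it was at least 2-fold lower in the pairs with ZT12 alone, so it is not among the 3082 genes.

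**Figure D1:**
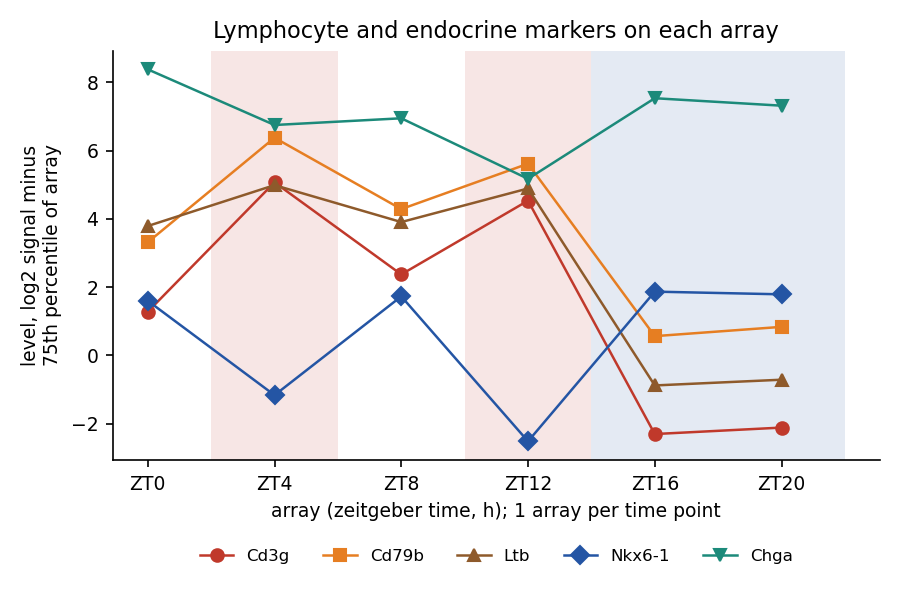
Level (log2 signal minus the 75th percentile of the array) of Cd3g, Cd79b, Ltb, Nkx6-1 and Chga on each of the 6 arrays, 1 array per time point, with ZT4 and ZT12 shaded red and ZT16 and ZT20 shaded blue. The 3 lymphocyte markers peak on the red arrays, where Nkx6-1 is lowest at -1.17 and -2.52.

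The genes higher at ZT4 and ZT12 had a median difference of 2.42, a fold of 5.35, and those higher at ZT16 and ZT20 a median of -2.40, a fold of 5.30. Large differences were more frequent in the first direction. In all 4 pairs, 811 genes were at least 8-fold higher at ZT4 and ZT12 and 382 at least 16-fold, against 205 and 32 genes in the other direction. The arrays within a pair also differed: the median absolute difference over all genes was 0.67 between ZT4 and ZT12 and 0.26 between ZT16 and ZT20. Of the 3455 genes, 2909 were well above background on all 4 arrays, and 391 were not above it on either ZT16 or ZT20. Of the 3082 genes, 2232 were above background on all 4 arrays, and 473 were not above it on either ZT4 or ZT12. Without the 2-fold rule, the pairs did not overlap for 7705 genes higher at ZT4 and ZT12 (31.6%) and 8869 lower (36.4%). Genes measured only through the pair where they were high had to differ, so the counts are not evidence of a difference.

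Scaling moved the balance of the directions. Centring each array on its median gave 4242 genes higher and 2121 lower at ZT4 and ZT12. Scaling on the 75th percentile of probes detected on all 4 arrays gave 2759 and 4139, and normexp background correction gave 3060 and 1708. The median difference over all genes was -0.18, and these scalings took it to 0.13, -0.47 and 0.11, which bears on every small difference reported here. Quantile normalization gave 3161 and 2882 genes.

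The difference also moved with signal. By deciles of mean level, the median difference over all genes went from -0.63 among the dimmest genes to 0.86 among the brightest, and the difference between ZT4 and ZT12 went from -0.40 to 0.66. Just inside the threshold, Ap1m1 was at 2.78 and 2.81 against 1.78 and 1.49, and Zkscan3 at -3.69 and -1.98 against -0.97 and -0.61. Just outside it, Ppp1cc was at 5.66 and 5.29 against 4.29 and 4.19, and Crybb3 at -3.53 and -4.29 against -1.80 and -2.53. The smallest pair of each of these 4 genes rounds to 1 log2 unit in size. Banp and E330021D16Rik were also just inside, and Tph1 and Rsad2 just outside.

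**Figure D2:**
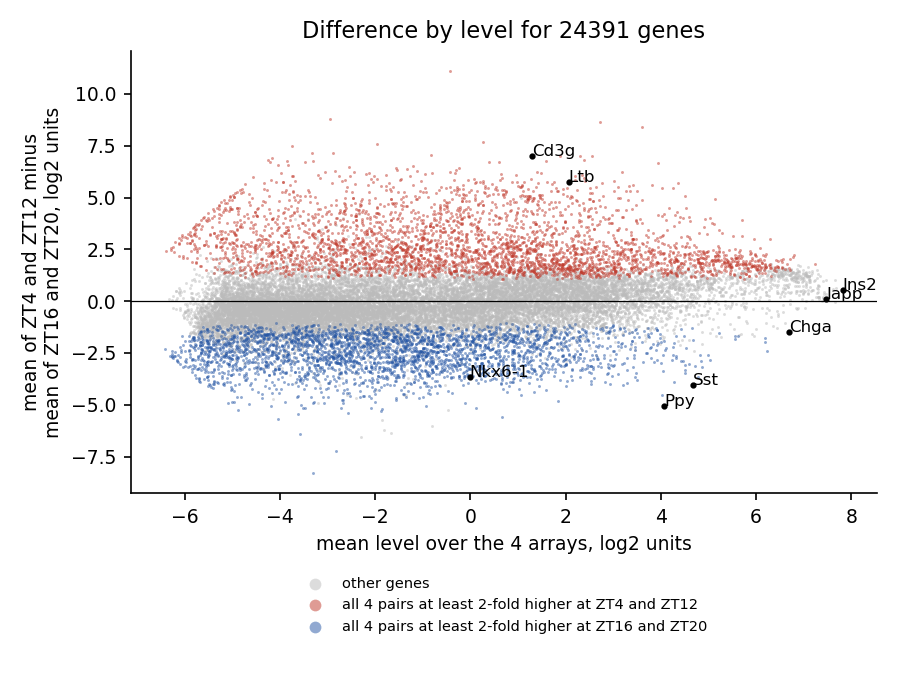
Mean level over the 4 arrays (x axis, log2 units) against the mean of ZT4 and ZT12 minus the mean of ZT16 and ZT20 (y axis, log2 units), 1 point per gene for 24391 genes. The 3455 red and 3082 blue points met the 2-fold rule in all 4 pairs, and Ins2 and Iapp lie near 0 while Ppy and Sst lie at -5.05 and -4.03.

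The gene lists of immune cells gave the clearest block of genes higher at ZT4 and ZT12. Of 259 measured genes (280 on the array), 202 were higher by the rule and 3 lower, with a median difference of 3.60, against 14.2%, 12.6% and -0.18 for all genes. The T cell list led with 31 of 34 genes higher and none (0) lower, and a median of 5.39. Cd3d, the delta chain of the CD3 complex, was at 5.07 and 4.85 against -1.67 and -1.92. Its start lies 1355 bp from that of Cd3g on the opposite strand. Lat, the adaptor that links the T cell receptor to its signalling, was at 1.87 and 2.36 against -4.03 and -4.02. Ccr7, the receptor that guides T cells and dendritic cells into lymph nodes, was at 5.22 and 5.23 against -1.08 and -0.56. The list also held Cd4, Cd8a and Foxp3, markers of helper, cytotoxic and regulatory T cells, all higher by the rule.

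Among 17 genes of NK and cytotoxic cells, 15 were higher and 0 lower, with a median of 4.02. Ccl5, a chemokine of activated T and NK cells, was at 7.70 and 6.71 against 0.67 and 2.35, and so was less even between ZT16 and ZT20. The NK receptor genes Klra4 and Klra8 differed by 4.91 and 4.71. Gzmk, a granzyme, was the exception, at -1.71 and -1.48 against -1.16 and -0.07.

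B cell and plasma cell genes followed the same order, with 29 of 35 higher, 1 lower and a median of 4.23. Cxcr5, which directs B cells to follicles, was at 2.46 and 2.50 against -2.64 and -2.66, among the most even values within pairs. Fcmr, the receptor for IgM, was at 5.57 and 5.21 against -0.38 and 0.17. The higher genes included Ms4a1 and Cd79a of B cells and Jchain and Mzb1 of antibody-secreting cells. Pax5, the factor that commits cells to the B lineage, went the other way, at -3.08 and -3.63 against -0.77 and -1.63. Tnfrsf13b and Prdm1 were also lower in all 4 pairs, without meeting the 2-fold rule.

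The GIMAP genes, GTPases of lymphocytes that lie in a cluster, were all higher, 8 of 8, with a median of 4.53. Gimap3 was at 6.10 and 5.72 against 0.10 and 0.13. Shared leukocyte signalling genes were higher in 34 of 40 cases and lower in 0, with a median of 4.12. Itgb7, an integrin chain that lymphocytes use to enter gut tissue and lymph nodes, was at 5.23 and 4.73 against -0.59 and -0.95. Grap2 and Lcp2, adaptors of T cell receptor signalling, were not above background at ZT16 or ZT20, so they are only at least 37.0-fold and 35.5-fold higher. A bound of this kind sets the bright mean against the lowest detected level of the dim arrays.

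Antigen presentation genes were higher in 7 of 8 cases, with a median of 3.62. Cd74, the invariant chain that loads MHC class II molecules, was at 6.95 and 6.47 against 3.27 and 2.95. H2-Oa, a regulator of peptide loading found in B cells, was at 4.55 and 3.93 against -1.85 and -1.50. The class II genes were thus measured on all 4 arrays, with a smaller difference for Cd74 (3.60) than for H2-Oa (5.91).

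Macrophage and dendritic cell genes were higher in 27 of 37 cases and lower by the rule in 0, with a median of 3.10. Marco, a scavenger receptor of macrophages of the lymph node sinus and splenic marginal zone, was at 6.17 and 4.60 against -2.29 and -0.91. Aif1, a macrophage cytoskeletal protein, was at 5.67 and 4.57 against -0.07 and -0.12. Cd209b, a lectin of the same marginal zone and sinus macrophages as Marco, was at 0.24 and -0.25 and was not above background at ZT16 or ZT20, which makes it at least 39.8-fold higher. Vsig4, a complement receptor of resident macrophages, was lower, at -5.79 and -4.63 against -4.05 and -1.56, the value at ZT4 not above background. Zbtb46, a factor of classical dendritic cells, was not higher either, with a difference of -0.78.

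Granulocyte and mast cell genes were mixed, with 5 of 13 higher and 2 lower, or 38.5% and 15.4% beside 14.2% and 12.6% of all genes. Their median was 1.34, which was 0.73 without ZT16. S100a9, a subunit of calprotectin of neutrophils, was at 2.21 and 1.46 against -6.46 and -5.05, the value at ZT16 not above background. S100a8, its partner, was at -0.90 and -0.83 and not above background on the other arrays, at least 21.9-fold higher. Hdc, the enzyme that makes histamine, was lower at -4.15 and -4.10 against -2.32 and -2.55, and the neutrophil protease Elane was lower too, at 1.53 and 1.16 against 3.56 and 2.99.

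Genes of lymph node stroma and lymphoid chemokines were higher in 16 of 18 cases and lower in 0, with a median of 4.19. Ccl19, the chemokine that recruits CCR7-bearing cells to the T cell zone, was at 4.02 and 4.91 against -1.04 and -0.62. Fut7 and Chst4 encode enzymes that build the L-selectin ligands of high endothelial venules. Fut7 was at 3.32 and 2.94 against -2.62 and -2.57. Chst4 was at 1.02 and 0.99 against -5.15 and -4.92, the value at ZT16 not above background. Tnfsf11, the cytokine RANKL needed to form lymph nodes, was at least 48.2-fold higher. The venule genes Glycam1 and Madcam1 and the follicle chemokine Cxcl13 were among the 16. Flt4, a receptor of lymphatic endothelium, was not, at -4.46 and -4.27 against -3.39 and -3.41.

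NF-kB and inflammatory response genes were higher in 17 of 28 cases and interferon response genes in 16 of 24, with medians of 1.74 and 1.80 and 0 lower in each. Traf1, an NF-kB target that binds TNF receptors, was at 4.29 and 4.25 against -1.63 and -1.20. Vcam1, an adhesion molecule of stroma and inflamed endothelium, was at 3.27 and 4.13 against -0.81 and -0.79. Zbp1, a sensor of nucleic acids, was at 1.94 and 1.66 against -2.45 and -2.36. Psmb8 and Psmb9, subunits of the immunoproteasome, differed by 3.81 and 3.54. The antiviral gene Rsad2 was lower at ZT4 and ZT12 in all 4 pairs (-1.66 and -1.25 against -0.25 and -0.17), and Irf7 overlapped. Many genes of these lists are also expressed in leukocytes, whose markers moved with them as given above, and the part of those cells in the difference was not tested.

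**Figure D3:**
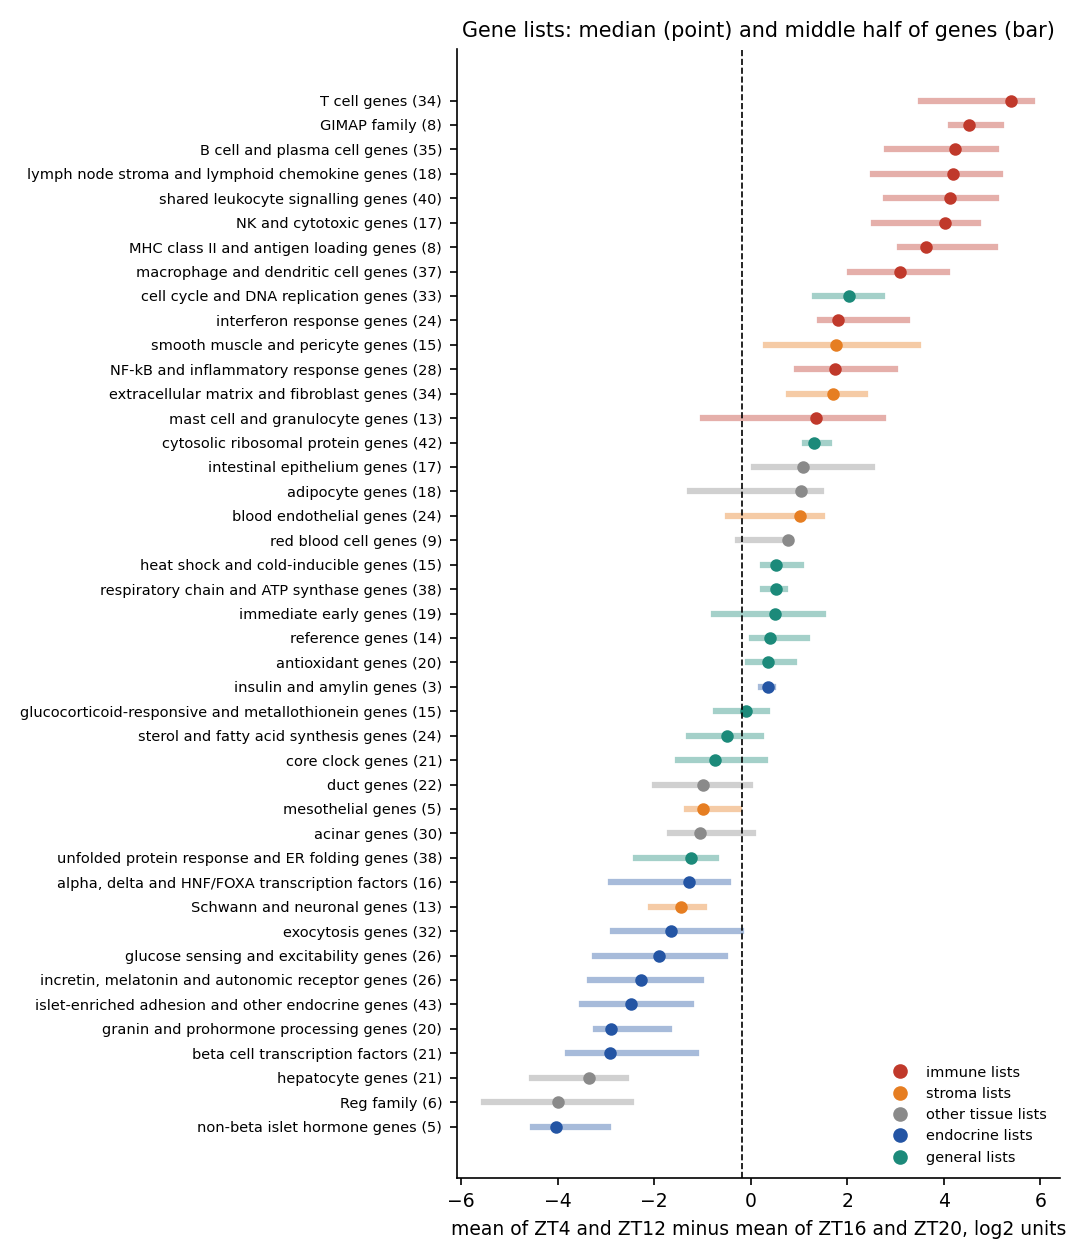
Median (point) and range of the middle 50% of genes (bar) of the mean of ZT4 and ZT12 minus the mean of ZT16 and ZT20, in log2 units, for 43 gene lists with the number of measured genes in brackets. The dashed line is the median of all genes at -0.18, with T cell genes at 5.39 and non-beta islet hormone genes at -4.03 at the ends.

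Connective tissue genes were also higher, by less. Of 34 genes of extracellular matrix and fibroblasts, 19 were higher and 1 lower, or 55.9% and 2.94% beside 14.2% and 12.6% of all genes. Their median was 1.71. Fap, a fibroblast surface protease, was at 2.24 and 2.24 against -3.35 and -2.73. Postn, a secreted matrix protein, was at 3.59 and 3.31 against 0.03 and -0.29, and the collagen-binding Lum was at 2.89 and 3.00 against -0.41 and -0.16. Bgn, another small proteoglycan, went the other way, at -2.24 and -2.71 against 0.74 and -0.34.

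Smooth muscle and pericyte genes were higher in 6 of 15 cases and lower in 1, or 40% and 6.67% beside 14.2% and 12.6% of all genes. Their median was 1.78. Acta2, the actin of smooth muscle, was at 5.93 and 4.90 against 0.70 and 2.41, and Cnn1, calponin of smooth muscle, at 4.53 and 1.55 against -4.59 and -0.23. Both were highest at ZT4 and lowest at ZT16. Rgs5, a pericyte gene, was lower and not above background at ZT4 or ZT12, at least 3.22-fold below ZT16 and ZT20.

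Of 24 blood endothelial genes, 7 were higher and 2 lower, or 29.2% and 8.33% beside 14.2% and 12.6% of all genes. Their median was 1.02, which was 0.62 without ZT12. Vwf, the clotting factor carrier of endothelium, was at 1.63 and 1.76 against -0.63 and -0.83, and Cldn5, a tight junction protein, at -0.10 and -1.0 against -3.28 and -2.59. Plvap, a protein of the diaphragms of fenestrated capillaries such as those of islets, was lower, at 0.72 and -0.17 against 2.71 and 1.74. Endothelial genes thus stood on both sides within the list.

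Schwann and neuronal genes ran with the endocrine genes, with 6 of 13 lower and 0 higher, or 46.2% lower beside 12.6% of all genes. Their median was -1.44, which was -2.45 without ZT4 and -0.90 without ZT12. Sox10, the factor of the Schwann lineage, was at -0.67 and -1.44 against 2.15 and 0.91. Th, tyrosine hydroxylase of sympathetic nerves, was at 1.16 and -0.07 against 2.79 and 2.45. Ncam1, an adhesion molecule of nerve and endocrine cells, was at 0.68 and 0.11 against 3.67 and 3.43. Mbp, a myelin protein, was higher in all 4 pairs by 0.22 to 0.75.

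Endocrine genes made up the matching block on the other side. Of 190 measured genes (204 on the array), 107 were at least 2-fold lower at ZT4 and ZT12 in all 4 pairs and 7 higher, with a median of -2.29. These shares were 56.3% and 3.68%, beside 12.6% and 14.2% of all genes. Counting any size, 146 were lower in all 4 pairs and 17 higher in all 4. Of all genes, 36.4% were lower and 31.6% higher in all 4 pairs by that count. Without the ZT4 array, which was scanned apart, the median was -2.82, and without the ZT12 array it was -1.62.

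The non-beta islet hormones were all lower, 5 of 5, with a median of -4.03. Ppy, pancreatic polypeptide, was at 1.92 and 1.18 against 6.85 and 6.34, which is 33.0-fold. Pyy, peptide YY, was at 2.62 and 0.94 against 6.45 and 6.13. Sst, somatostatin of delta cells, was at 3.58 and 1.72 against 6.77 and 6.60. In each of these 3 genes ZT12 was the lowest array and the pairs were far apart. Ghrl, ghrelin, was at -1.29 and -2.70 against 1.23 and 0.67. Gcg, glucagon of alpha cells, was at 5.85 and 4.20 against 7.54 and 7.37, a smaller difference of -2.43.

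Insulin and amylin did not share that difference. Ins1 was at 8.29 and 6.99 against 7.39 and 7.19, Ins2 at 8.75 and 7.44 against 7.60 and 7.50, and Iapp, amylin, at 8.13 and 6.91 against 7.52 and 7.33. The pairs overlapped for all 3 genes, with ZT4 the highest array and ZT12 the lowest. Their differences were 0.35, 0.55 and 0.09. Under quantile normalization they were -0.34, -0.08 and -0.60, so no direction is given.

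Before any scaling, the processed signals of Ins2 were 216960 and 288650 on the ZT4 and ZT12 arrays and 237820 and 249030 on the ZT16 and ZT20 arrays. Those of Gcg were 29260, 30379, 228280 and 227720 in the same order. The Ins2 signals were therefore nearly level across the 4 arrays while glucagon was low on the first pair. The ZT4 array was dimmer as a whole, with a 75th percentile of 506 against 1657, 1229 and 1380 on ZT12, ZT16 and ZT20. After scaling, the order of ZT4 and ZT12 was reversed for Ins2, at 8.75 and 7.44, and Gcg was at 5.85 and 4.20. The highest signal of any probe was 239750 on the ZT4 array, and on the ZT16 array it was the 237820 of Ins2 itself. On the ZT20 array, of the same scan as ZT16, the highest signal was 345950. No spot was flagged as saturated, so closeness to the highest probe does not place Ins2 near a limit. What the upper end of the range contributed to the small differences of the insulin and amylin genes was not tested.

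**Figure D4:**
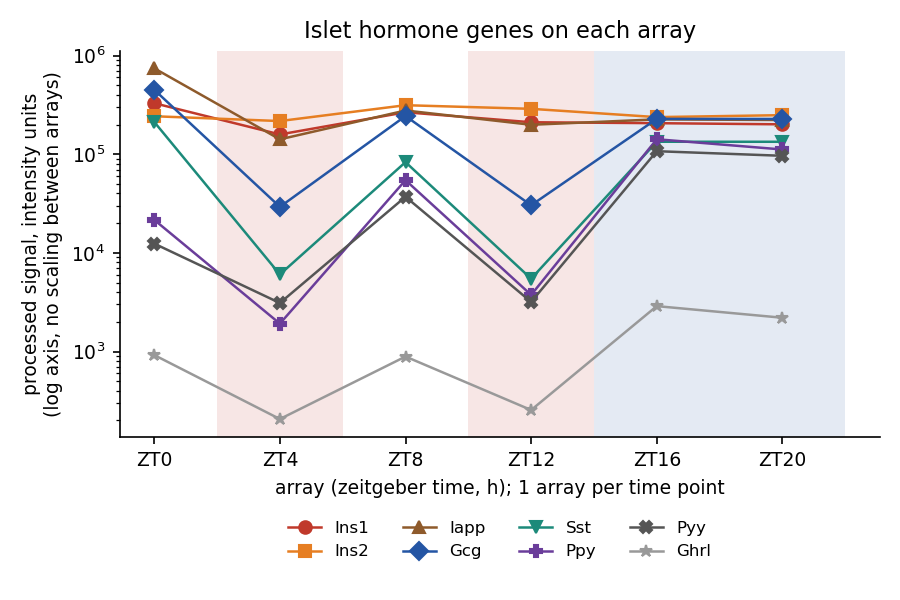
Processed signal (intensity units, log axis, no scaling between arrays) of 8 islet hormone genes on each of the 6 arrays, with ZT4 and ZT12 shaded red and ZT16 and ZT20 shaded blue. Ins1, Ins2 and Iapp stay near the top on all arrays, while Gcg is at 228280 at ZT16 and 29260 at ZT4, and Sst, Ppy, Pyy and Ghrl are lowest on the red arrays.

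Granins and prohormone processing genes were lower in 14 of 20 cases and higher in 0, with a median of -2.89, which was -1.85 without ZT12. Chgb, the granule protein chromogranin B, was at 3.36 and 2.54 against 6.76 and 6.47. Pcsk1, a protease that cuts proinsulin, was at 1.76 and 0.87 against 5.30 and 5.24. Cltrn, collectrin of beta cell membranes, was at 3.62 and 1.96 against 6.28 and 6.21. Pcsk2, the partner protease of Pcsk1, differed by -1.98, and Cpe, the carboxypeptidase that trims the cut peptides, by -1.31 without meeting the rule. All 20 genes had a lower mean at ZT4 and ZT12.

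Transcription factors of beta cells were lower in 15 of 21 cases, with a median of -2.92. Neurod1, a basic helix-loop-helix activator of the insulin genes, was at -6.12 and -5.44 against -1.16 and -0.53, the first value not above background. Pax6, needed in all islet cell types, was at -4.94 and -3.93 against 0.10 and 0.39, with ZT4 again below background. Pdx1, the regulator of pancreas and beta cells, was at -3.86 and -4.35 against -0.56 and -0.81. St18, a zinc finger factor, was lower by the rule with its value at ZT4 not above background, and Myt1, a zinc finger factor of endocrine precursors, was at least 13.0-fold lower.

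Factors of alpha and delta cells and of the HNF and FOXA groups were lower in 7 of 16 cases and higher in 0, with a median of -1.27, which was -2.55 without ZT4. Irx2, a homeodomain factor of alpha cells, was at -2.95 and -5.45 against -0.04 and 0.31, and Foxa2 at 0.97 and -1.14 against 3.36 and 3.34. Both were lowest at ZT12.

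Genes of glucose sensing and excitability were lower in 13 of 26 cases and higher in 4, with a median of -1.90. Slc2a2, the glucose transporter GLUT2, was at 0.89 and -0.40 against 3.99 and 4.07. Pfkfb2, a regulator of glycolysis, was at -3.14 and -3.32 against 0.54 and 0.87. Cacna1d, a pore subunit of L-type calcium channels, was at -5.79 and -4.90 against -1.25 and -1.09, the value at ZT4 not above background. Abcc8, the sulfonylurea receptor of the ATP-sensitive potassium channel, differed by -3.01.

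Exocytosis genes were lower in 15 of 32 cases and higher in 1, with a median of -1.64. Syt7, a calcium sensor of granule fusion, was at -4.79 and -4.98 against -0.67 and -0.93. The related Syt4 and Syt9 were below background at ZT4 and ZT12, at least 24.6-fold and 11-fold lower. Rims2, a scaffold of docking sites, was at least 4.30-fold lower.

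Incretin, melatonin and autonomic receptor genes were lower in 15 of 26 cases and higher in 1, with a median of -2.27. Gipr, the receptor for the incretin GIP, was at -3.85 and -3.47 against 0.99 and 0.67. P2ry1, a purine receptor, was at -1.38 and -1.51 against 1.87 and 2.05, and Gpr119, a lipid receptor of islets and gut, at -3.35 and -3.71 against -0.13 and -0.17. In these 3 genes the arrays of a pair lay close together.

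The remaining list of islet-enriched genes was lower in 25 of 43 cases and higher in 0, with a median of -2.48, which was -1.34 without ZT12. Disp2 was at -1.14 and -1.71 against 2.90 and 2.71. Gad1, which makes GABA in beta cells, was at -1.73 and -1.54 against 2.32 and 2.14. Gng4, a G protein subunit, was at -5.41 and -3.50 against 0.84 and 0.68, the value at ZT4 not above background. Dcx, a microtubule protein of neurons, was at least 21.4-fold lower.

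Genes of the unfolded protein response and protein folding in the endoplasmic reticulum went with the endocrine genes. By the rule 17 of 38 were lower and 0 higher, or 44.7% lower beside 12.6% of all genes. The median was -1.24, and all 38 had a lower mean at ZT4 and ZT12. Ero1b, an oxidase that helps fold proinsulin, was at 2.77 and 2.91 against 6.16 and 6.16. Dnajb9, a chaperone partner of BiP, was at 1.43 and 1.91 against 4.76 and 4.69. Wfs1, the protein affected in Wolfram syndrome, was at 0.66 and 0.32 against 3.80 and 3.27.

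Of the 190 genes of the endocrine lists, 29 did not have a lower mean at ZT4 and ZT12, and the pairs of 12 of these overlapped. Among the 48 dimmest endocrine genes by level at ZT16 and ZT20 there were 11 of the 29, and the median difference there was only -0.88. The brighter groups of 47, 47 and 48 genes held 5, 10 and 3, with medians of -2.68, -2.39 and -2.80. The lists also held genes described below as low or lacking in endocrine cells, such as Ldha, Hk1 and Rest. The other settings gave 22 to 35 such genes, and 16 of the 29 were not lower in any setting in which they were measured. The 7 that were at least 2-fold higher in all pairs were Bach2, Ldha, Hk1, Npy1r, Trpm2, Stx4a and Ucp2.

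Bach2, a repressor that works in B and T cells and was also listed for beta cells, was at 1.73 and 2.03 against -2.67 and -1.97. Ldha, lactate dehydrogenase A, which beta cells keep at a low level, was at 7.40 and 6.46 against 3.02 and 4.00. Hk1, the hexokinase that beta cells largely replace with glucokinase, was at 4.09 and 4.00 against 1.07 and 1.05. These 3 were far apart between the pairs, by 3.42 for Ldha and 2.98 for Hk1. The 2 other probes of Ldha were not called, but both were higher at ZT4 and ZT12 on the mean. The 1 other probe of Hk1 was not higher, and the difference of Hk1 was 1.49 with the median of its probes.

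Npy1r, a receptor for neuropeptide Y, was at 0.02 and 1.29 against -2.20 and -1.97. Trpm2, a calcium channel found in beta cells and in phagocytes, was at -0.87 and -1.38 against -3.35 and -3.52. Ucp2, a mitochondrial carrier also abundant in leukocytes, was at 1.85 and 2.41 against 0.82 and 0.34. Stx4a, a syntaxin of the plasma membrane in most cells, was at 4.47 and 3.76 against 2.74 and 2.52, and its smallest pair of 1.02 lay close to the threshold.

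Others were not lower without meeting the rule. Stxbp2, a fusion protein of blood cells and epithelia, was at 3.39 and 2.66 against 1.72 and 1.52. Rest, the repressor of neuronal genes that endocrine cells lack, was at -3.95 and -3.57 against -5.25 and -4.72, the value at ZT16 not above background. Hhex, a factor of delta cells and also of B cells, was at 1.92 and 2.08 against 0.76 and 1.13. Tph1, Rab3c, Gprc5b, Npas4, Vamp8 and Mtnr1b were likewise higher in all 4 pairs. Mafa, the activator of insulin transcription in mature beta cells, overlapped at 3.09 and 1.67 against 2.42 and 1.80, and Foxo1 overlapped at 2.65 and 4.14 against 3.06 and 2.84.

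Cell cycle and DNA replication genes were higher at ZT4 and ZT12 in 24 of 33 cases and lower in 1, with a median of 2.04. Those shares were 72.7% and 3.03%, beside 14.2% and 12.6% of all genes. Birc5, survivin of dividing cells, was at 3.07 and 2.10 against -1.52 and -1.62, and its 2 other probes gave the same call. Tk1, thymidine kinase, was at 2.80 and 1.93 against -1.92 and -1.22, and Mcm3 of the replication helicase at 3.25 and 2.79 against -0.31 and -0.45. Ccnd2, the D cyclin of beta cells, was lower, at 0.09 and 1.66 against 2.99 and 2.79.

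Cytosolic ribosomal protein genes were higher in 12 of 42 cases, or 28.6% beside 14.2% of all genes. All 42 had a higher mean at ZT4 and ZT12, with a median of 1.30, which was 0.76 without ZT4. Rps19 was at 4.77 and 4.74 against 2.04 and 1.83, and Rplp1 at 6.84 and 5.96 against 4.00 and 4.06. Respiratory chain and ATP synthase genes were higher in 1 of 38 cases, Cox5a, or 2.63%. Their median of 0.52 became -0.39 under quantile normalization and 0.09 without ZT4. These lists sit among the brighter genes, whose median difference was up to 0.86 as given above, and the part of signal level in the difference was not tested.

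Core clock genes were higher in 2 of 21 cases and lower in 5, or 9.52% and 23.8% beside 14.2% and 12.6% of all genes. Their median was -0.75, which was -0.44 without ZT4 and -0.45 without ZT16. Dbp, an output factor of the clock, was at 4.05 and 3.55 against 1.99 and 1.16. Nr1d1, the repressor REV-ERB alpha, was at -3.25 and -3.43 and below background at ZT16 and ZT20, at least 3.96-fold higher. Per2, a period gene that feeds back on its own transcription, was at -5.03 and -1.65 against -0.01 and -0.10, the first value below background. Clock was at -2.81 and -1.28 against 0.75 and 0.87. Fbxl21 and Cry2 were also lower by the rule. Since each pair joins different times of day, time and the cell markers above cannot be told apart for these genes.

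Immediate early genes split, with 5 of 19 higher and 4 lower, or 26.3% and 21.1% beside 14.2% and 12.6% of all genes. Klf2, a factor of resting T cells and endothelium, was at 4.90 and 5.17 against 1.68 and 1.72, and Egr2 was at -1.17 and 0.26 against -3.71 and -3.63. Nr4a2 was lower, at -3.31 and -3.11 against -1.36 and -0.67, and so was Fosl1, by 2.48 on the mean. Sterol and fatty acid synthesis genes were lower in 5 of 24 cases and higher in 1, or 20.8% and 4.17%, with a median of -0.50.

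Lists of other tissues showed patterns that came from a single array. Hepatocyte genes had a median of -3.35, with 6 of 21 lower and 0 higher, or 28.6% lower beside 12.6% of all genes. Ahsg, the plasma protein fetuin A, was below background at ZT4 and ZT12, at -3.70 at ZT16 and at 5.38 at ZT20, and is at least 76.1-fold lower on the mean. Fgb, fibrinogen beta, was at -4.42 at ZT16 and 3.66 at ZT20. The median level of the list was 3.59 at ZT20 and -3.08 at ZT16, so only 1 array of the pair was high. Without the ZT20 array the median was -0.93, and without ZT16 it was -5.54. Ttr, transthyretin, which alpha cells also make, was near even within the pairs, at 3.01 and 1.63 against 6.25 and 6.20. Tat, tyrosine aminotransferase, was at -1.57 and -1.45 against 0.83 and 1.75.

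The Reg family, secreted lectins of acinar and islet cells, was lower in 2 of 6 cases with a median of -3.99. That share was 33.3%, beside 12.6% of all genes. Reg2 was at -1.34 and -2.94 against -0.23 and 7.16, and Reg3a was at least 73.0-fold lower on the mean through its level of 3.51 at ZT20. The median of the family was -1.34 without ZT20 and -7.20 without ZT16. Intestinal epithelium genes had a median level of 3.86 at ZT4 against -3.36 at ZT12, but not all members were high at ZT4. Spink4, Tff3 and Agr2 were high at ZT4 alone, at 6.80, 6.10 and 6.04. Fabp1 was highest at ZT20 (5.25) and Vil1 at ZT16 (3.83), and Lct and Apoa4 were not above background at ZT4. The median difference of the list, 1.08, became -0.55 without the ZT4 array. Krt20, a keratin of intestinal and other epithelia, was the only member called, at 3.86 and -0.59 against -4.83 and -4.60.

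Acinar genes were lower in 2 of 30 cases and higher in 0, or 6.67% and 0% beside 12.6% and 14.2% of all genes. Their median of -1.06 became 0.28 without the ZT12 array, -0.41 without ZT20 and -2.36 without ZT4. Their median level was 4.24 at ZT12 and at least 6.20 on the other 3 arrays, so ZT12 alone was low. Of 22 duct genes, 2 were higher and 2 lower, or 9.09% in each direction beside 14.2% and 12.6% of all genes. Car2, a carbonic anhydrase also found in red cells, was higher, at 0.96 and 2.02 against -2.98 and -2.48, and Spp1, osteopontin, was lower, at -1.60 and -1.17 against 0.45 and 1.55.

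Among genes above background on all 4 arrays, those with the largest smallest pair in the first direction were, after Cd3g and Cd3d, Tnfrsf18, Ptpn18, Cst7, Klk8, Adamdec1, Il4i1, Lat, Cd7, Prss12 and Ccr7. Tnfrsf18, the costimulatory receptor GITR of regulatory T cells, was at 4.12 and 3.40 against -3.06 and -2.86. Ptpn18, a tyrosine phosphatase, was at 6.18 and 5.42 against -1.34 and -0.73. Il4i1, a secreted amino acid oxidase of antigen-presenting cells and B cells, was at 6.54 and 6.05 against 0.03 and 0.12. Klk8 and Prss12, secreted serine proteases, differed by 6.40 and 6.08.

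In the other direction the 12 were Lrrn1, Gdap1, Ppy, Gpr158, Nap1l2, Lrp11, Efhc2, Gipr, Nol4, Arfgef3, Slc16a12 and Efcab1. Lrrn1, a leucine-rich repeat protein of neurons, was at -2.58 and -2.34 against 2.54 and 2.82. Gdap1, a protein of mitochondrial fission, was at -3.29 and -3.54 against 1.23 and 1.33. Gpr158, an orphan receptor of the nervous system, was at -2.56 and -2.63 against 1.86 and 1.83, so that its 4 pairs lay between -4.48 and -4.39. Arfgef3, a regulator of insulin granules, was at -3.17 and -4.16 against 0.88 and 1.03. Of the genes called, 301 in the first direction and 170 in the second stood in any list. The rest included 906 and 796 without a gene symbol.

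Where a gene had other probes, they gave the same call in 323 of 718 cases for genes higher at ZT4 and ZT12 and the opposite call in 18. For genes higher at ZT16 and ZT20 the counts were 256 of 562 and 13. The sign of the difference was the same on 558 and 493 of these probes.

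RefSeq promoter windows of GRCm38.p6, from 250 bases before to 50 after a gene's start, were found for 1995 genes of the first direction, 1806 of the second and 13439 of all measured genes. They were searched on both strands for motifs of lymphoid and endocrine factors. A percentage is the share of genes with a match in at least 1 window, and some genes have several windows. The ETS site of PU.1 (GAGGAAGT), a factor of B cells and macrophages, was in 6.92% of the genes higher at ZT4 and ZT12. It was in 2.77% of those higher at ZT16 and ZT20 and 3.63% of all. The kB site (GGGA, any 2 bases, TTCC), bound by NF-kB, was in 2.71%, 0.886% and 1.65%. The RUNX site (TGTGGTTT) was in 2.41%, 1.22% and 1.67%, and the ETS-IRF composite (GGAA, any 2 bases, GAAA) in 4.36%, 2.66% and 2.91%. These 4 were thus more frequent in the first direction than in all genes. Within the lists, windows were found for 153 higher immune genes and 78 lower endocrine genes, so some shares rest on 1 or 2 genes. The composite was in 6.54% of the former (10 genes) and 6.41% of the latter (5 genes). The PU.1, kB and RUNX sites were in 8.5%, 3.92% and 4.58% of the immune genes, or 13, 6 and 7 genes. In the endocrine genes they were in 2.56%, 1.28% and 1.28%, or 2, 1 and 1 genes. The EBF site (TCCC, any 2 bases, GGGA) was in 1.5%, 1.5% and 1.21%.

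In the second direction, part of the REST site (GGACAGC, any base, CC), of the neuronal repressor, was in 1.44% of genes against 0.602% in the first and 0.96% in all. The cyclic AMP response element (TGACGTCA) was in 3.27%, 2.31% and 2.99%. The E-box of CLOCK and BMAL1 (CACGTG) was in 9.62% of the first direction, 8.97% of the second and 10.1% of all. The E-box used by NEUROD1 (CAGATG) was in 17.7%, 16.6% and 15.6%. Within the lists, the NEUROD1 E-box was in 26.1% of higher immune genes and 15.4% of lower endocrine genes, or 40 and 12 genes. The cyclic AMP response element was in 1.31% and 8.97% of them, or 2 and 7 genes. The D-box (TTANGTAA) and the homeodomain core (TAATTA) were in 1.95% and 3.91%, 2.10% and 4.15%, and 2.26% and 4.42%. The PU.1 letters can overlap those of the ETS-IRF composite. A match is a description of the letters and not of binding.

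The 250 bases before the start of 5 genes show these motifs in place. The genes were picked from those named above because they hold a motif. The cyclic AMP response element was in 3.27% of the genes of the second direction, near the 2.99% of all. The markers Cd3g and Chga held no match in their 250 bases. The element also stood before Rpl18, and the REST motif before Grap2 and Des, which were higher at ZT4 and ZT12. Capitals mark the motif matches on either strand. Ltb (chr17:35194257-35194506, plus strand) holds a kB site whose first base is 87 bases before the start. Il4i1 (chr7:44836038-44836287, plus strand) holds a PU.1 site at 133, a NEUROD1 E-box at 94 and an EBF site at 61 bases before it.
Ltb: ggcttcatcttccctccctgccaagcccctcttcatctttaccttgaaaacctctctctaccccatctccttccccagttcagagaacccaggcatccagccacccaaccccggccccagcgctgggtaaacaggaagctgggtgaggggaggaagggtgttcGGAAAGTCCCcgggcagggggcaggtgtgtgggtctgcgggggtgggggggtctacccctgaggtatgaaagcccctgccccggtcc
Il4i1: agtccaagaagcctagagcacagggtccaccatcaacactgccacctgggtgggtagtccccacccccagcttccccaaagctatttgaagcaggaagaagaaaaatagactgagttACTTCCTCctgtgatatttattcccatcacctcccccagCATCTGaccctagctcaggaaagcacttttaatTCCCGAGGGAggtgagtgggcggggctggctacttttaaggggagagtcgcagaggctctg
Of the genes higher at ZT16 and ZT20, Sst (chr16:23890845-23891094, minus strand) and Chgb (chr2:132781392-132781641, plus strand) hold a cyclic AMP response element at 48 and 72 bases before the start. Gpr158 (chr2:21367317-21367566, plus strand) holds the REST motif at 104 bases before it.
Sst: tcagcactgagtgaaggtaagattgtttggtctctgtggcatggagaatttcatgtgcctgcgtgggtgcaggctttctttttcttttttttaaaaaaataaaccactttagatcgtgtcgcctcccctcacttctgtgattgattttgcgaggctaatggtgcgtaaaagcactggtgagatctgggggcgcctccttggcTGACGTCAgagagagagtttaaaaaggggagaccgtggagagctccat
Chgb: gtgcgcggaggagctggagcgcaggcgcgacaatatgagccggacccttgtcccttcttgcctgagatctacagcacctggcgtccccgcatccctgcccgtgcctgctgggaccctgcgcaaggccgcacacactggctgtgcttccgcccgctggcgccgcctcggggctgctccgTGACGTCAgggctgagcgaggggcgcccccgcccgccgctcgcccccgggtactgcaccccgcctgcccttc
Gpr158: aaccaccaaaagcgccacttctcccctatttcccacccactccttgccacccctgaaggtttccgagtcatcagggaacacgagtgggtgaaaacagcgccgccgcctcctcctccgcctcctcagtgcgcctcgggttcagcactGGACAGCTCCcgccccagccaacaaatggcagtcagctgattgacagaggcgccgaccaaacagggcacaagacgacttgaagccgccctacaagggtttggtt

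The ZT0 and ZT8 arrays were not used to choose the genes. On each, the place of a gene was set at 0 for its mean at ZT16 and ZT20 and at 1 for its mean at ZT4 and ZT12. ZT8 shared the slide and scan of ZT12, ZT16 and ZT20, whereas ZT0 was scanned apart from them. The ZT0 array had 1743 outlier spots, against 217 at ZT8 and 166 to 247 on the arrays used to choose the genes. Probes were left out for outlier spots on those arrays only, so values at ZT0 may rest on such spots. What the scan and these spots contributed to the places at ZT0 was not tested. The 202 immune genes that were higher at ZT4 and ZT12 had a median place of 0.59 at ZT0 and 0.63 at ZT8, and 131 and 155 of them were nearer to ZT4 and ZT12. The 107 endocrine genes that were lower had a median place of 0.17 and 0.28, and 15 and 13 of them were nearer to ZT4 and ZT12. Of all genes measured, 45.0% at ZT0 and 41.7% at ZT8 were nearer to ZT4 and ZT12. Of the 3455 genes higher at ZT4 and ZT12 these shares were 47.0% and 47.8%, and of the 3082 genes higher at ZT16 and ZT20 they were 43.0% and 23.5%. The endocrine count at ZT8 thus stood beside a low share among all genes of that direction.

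The arrays were chosen by lymphocyte and endocrine markers, so the place of these genes on the ZT0 and ZT8 arrays is a description. Cd3g was at 1.28 at ZT0 and 2.37 at ZT8, and Cd79b at 3.31 and 4.29. Nkx6-1 was at 1.60 and 1.73, next to its levels of 1.87 and 1.79 at ZT16 and ZT20. Marco, the sinus macrophage gene, stood on the ZT16 and ZT20 side instead, at -0.96 and -0.70, close to its level of -0.91 at ZT20. Cd209b was not above background at ZT0 or ZT8.

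The lists differed in the median place of their called genes, to which the values of this paragraph on lists refer. B cell genes stood at 0.72 and 0.71 and T cell genes at 0.69 and 0.66, whereas interferon response genes stood at 0.23 and 0.37 and the 5 granulocyte and mast cell genes at 0.17 and 0.32. The 19 called extracellular matrix genes were about as high as at ZT4 and ZT12, at 0.99 and 0.89. Over all 34 measured genes of that list the medians were 1.23 and 0.98. Beta cell transcription factors stood at -0.03 and 0.20 and granin and processing genes at 0.01 and 0.32. Non-beta hormones stood at 0.62 at ZT0 and 0.37 at ZT8. At ZT0, Ppy and Pyy were at 3.45 and 2.65, between the pairs, while Sst was at 6.75, level with ZT16.

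**Figure D5:**
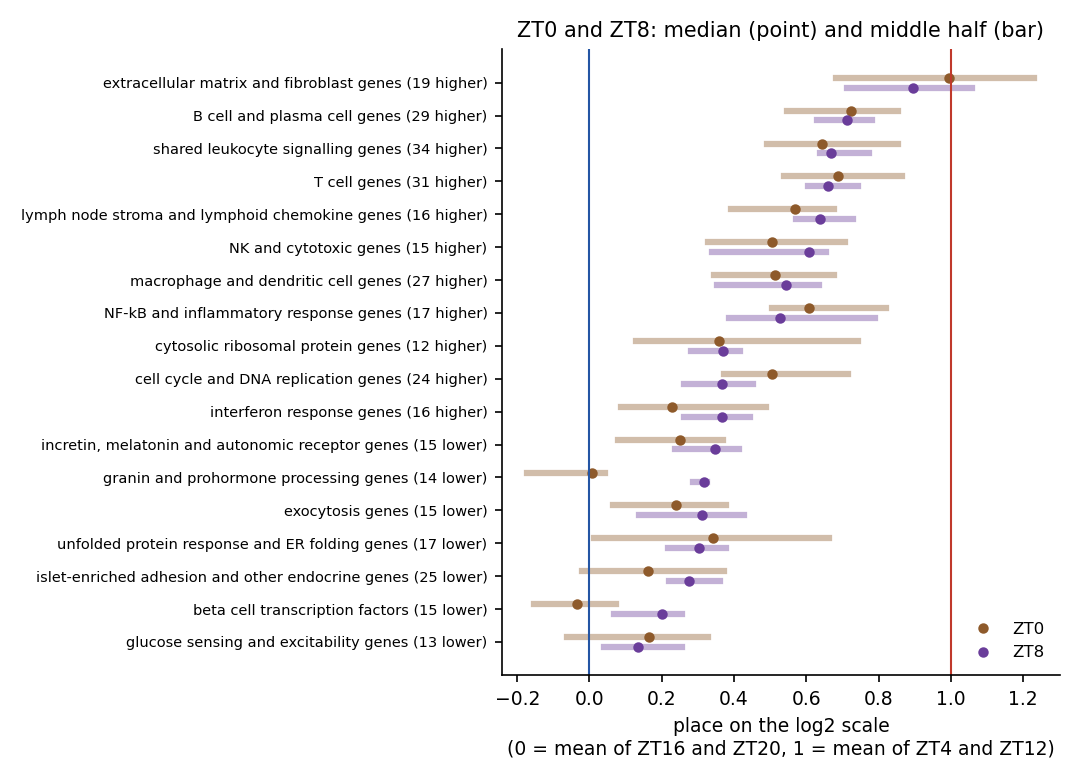
Place of the called genes of each list with at least 12 such genes on the ZT0 and ZT8 arrays, as median (point) and range of the middle 50% (bar), where 0 is the mean of ZT16 and ZT20 and 1 the mean of ZT4 and ZT12. B cell genes sit at 0.72 and 0.71 and beta cell transcription factors at -0.03 and 0.20.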

How the data were processed

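The samples were 6 arrays of islet RNA, 1 per time point, each in a group of its own. The deposited processed signal was made by Agilent Feature Extraction 11.0.1.1, per the file headers, as a background-subtracted linear intensity with no scaling between arrays, and the deposited flags (a score of 0 or 1) for spots well above background and outlier spots. The authors' table of log2 values was used as an alternative; how it was made is not given in the sources used here.

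Control spots were removed, spots of a probe averaged (39429 probes), and log2 intensity taken minus the 75th percentile of each array. A probe was kept when 2 or more of the 4 arrays had it well above background and none had only outlier spots for it, which left 29124. Symbols came from RefSeq names of GRCm38.p6 through accessions (27228 probes, 69.1%). The probe with the highest mean stood for a gene. A gene was called when all 4 cross pairs were at least 2-fold. No test was run, because the arrays were paired on these values and the number of arrays limits the precision. Members, gene lists and named genes were chosen with earlier results of these data known. Named genes were the 12 with the largest smallest pair in each direction, the markers, up to 4 genes with and 3 against the median of each list, endocrine genes not lower, and those at the threshold or with the largest bounds. Others named were chosen after their values were seen. The calling code was run on simulated data with large planted differences and less spread than between ZT4 and ZT12. That run checks the code and does not bear on these results. Python 3.11.15, pandas 2.3.3, R 4.3.3 and limma 3.58.1 (normexp, offset 50) were used. Some genes that the rule names are not reported here.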

Additional observations from a re-analysis of the deposited data

How the results depend on the processing

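With 1 array per time point no array has a replicate, so every value is a description, and spots below background give bounds only. No paired analysis was possible because each time point had 1 array and the labels give no shared replicate numbers. The median difference of the immune lists, 3.60 as reported, was 3.91 with array medians, 3.31 with the 75th percentile over probes detected on all 4 arrays, 3.04 with normexp and 3.38 without the background filter. The count of genes higher at ZT16 and ZT20 was 1708 with normexp. Leaving out each array in turn leaves 2 cross pairs, which a gene meets more easily: the count higher at ZT4 and ZT12 ran from 3928 to 5484 and that higher at ZT16 and ZT20 from 3765 to 5623, the highest both without ZT12. Without ZT4, which was scanned apart, they were 4403 and 5020. The immune median ran from 3.49 to 3.89 and the endocrine median from -2.82 to -1.62. The median of the intestinal list ran from -0.55 (without ZT4) to 5.91 (without ZT12) and that of the acinar list from -2.36 (without ZT4) to 0.28 (without ZT12), both with a change of sign; the median of the respiratory, heat shock, reference, insulin and amylin, and glucocorticoid lists changed sign under some scalings. The hepatocyte and Reg medians rested on ZT20, at -0.93 and -1.34 without it against -3.35 and -3.99 with it. Over lists and settings, and apart from the 2 changes of sign given first, list medians stayed within the range of their 4 pairs in 494 cases and left it in 134. For single named genes the counts were 3651 and 457. That range is wide where 1 array of a pair stands apart. With the authors' table, 83.6% of genes higher at ZT4 and ZT12 and 81.9% of those higher at ZT16 and ZT20 were called again.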

Other observations

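Adipocyte genes were higher at ZT4 and ZT12 by the 2-fold rule in 5 of 18 cases and lower in 2. These shares were 27.8% and 11.1%, beside 14.2% and 12.6% of all genes. Angptl4, an inhibitor of lipoprotein lipase, was at 3.94 at ZT4 and 1.89 at ZT12 against -3.22 at ZT16 and -1.40 at ZT20, while Lpl, the lipase itself, was lower, at -0.79 and 0.12 against 1.96 and 3.11. Adipoq, the fat cell hormone adiponectin, was at -3.83 and -4.00 and below background on the other arrays, at least 2.65-fold higher.

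Antioxidant genes were higher in 2 of 20 cases and lower in 3, shares of 10% and 15% beside 14.2% and 12.6% of all genes. Hmox1, heme oxygenase, was at 0.31 and -1.67 against 3.16 and 2.0, and Gclm, of glutathione synthesis, at -2.89 and -2.39 against -0.92 and -0.69. Glucocorticoid-responsive genes were higher in 3 of 15 cases and lower in 1, or 20% and 6.67%, with a median of -0.10. Tsc22d3, the leucine zipper GILZ, was at 4.34 and 4.90 against 2.39 and 2.32, and Ddit4 at 4.14 and 4.79 against 1.87 and 1.87. Rbm3, a cold-inducible RNA-binding protein, was the 1 gene of 15 called in the heat shock and cold-inducible list, at 4.52 and 5.12 against 2.78 and 2.85. Of 14 reference genes, Actb and B2m were higher by the rule, or 14.3%, near the share of all genes. Actb was at 7.54 and 6.39 against 3.40 and 3.10, and B2m, the light chain of MHC class I, was at 6.93 and 6.88 against 4.20 and 4.66.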
